A study of Rattus norvegicus with 18 samples.

Results

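The genes described here are those of protein folding in the endoplasmic reticulum (ER) and of the unfolded protein response, the signalling that a cell starts when proteins misfold in that compartment. They were chosen by name, as 35 listed gene symbols, of which 34 were matched in the deposited table and 1, Derl2, was not analysed here. The table held 13136 distinct gene symbols. Pdia3 had more than 1 probe set and was read from the one with the higher mean. All 34 lay above the filter on low signals that 9852 genes passed.

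The values come from INS1E cells, a clonal beta-cell line from a rat insulinoma that secretes insulin, measured on 18 Affymetrix Rat Gene 1.0 ST arrays in 6 groups of 3. The groups were calcitriol for 72 h and then 22 mM glucose, calcitriol without glucose, calcidiol and then 22 mM glucose, calcidiol without glucose, 22 mM glucose without vitamin D, and a control with neither. Both vitamin D forms were given at 10 nM. Calcidiol is the form that circulates, and calcitriol, the active hormone, has an additional hydroxyl on carbon 1. All 6 groups shared culture at 11 mM glucose and 60 min in buffer free of glucose. The stimulated groups then had glucose for 60 min, and the others stayed without glucose for the same 60 min. The state without glucose is therefore that of glucose-starved cells and not of cells at culture glucose. Each array carried 1 sample. The labels do not say whether the 3 samples of a group were grown separately. The p-values therefore cover the spread between these arrays, and that spread may be technical.

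The cell type fitted its label, with all 9 beta-cell markers in the table above the filter (Ins1 between 12.78 and 12.98 and Ins2 between 12.96 and 13.08, log2 signal). Of 8 markers of other cell types in the table, 2 passed, Gcg between 10.20 and 12.16 and Sox9 between 7.44 and 8.86. Median log2 signals of single arrays were 7.52 to 7.63, and precision is limited by how many arrays there are. The arrays numbered 3 stood apart. Txnip, whose transcription glucose raises in beta cells, read 12.18 or more on arrays 1 and 2 of every glucose group and 10.53 or less on arrays 1 and 2 of every group without glucose. Array 3 of calcitriol without glucose read 12.11, whereas array 3 of calcidiol with glucose read 10.23 and array 3 of glucose without vitamin D read 10.33, each against its label. On both calcidiol arrays numbered 3, with and without glucose, Casr read 9.55 and 9.52, and on the other 16 arrays 7.36 or less. Calcitriol arrays 1 and 2 read between 7.18 and 7.36, whereas the calcitriol arrays numbered 3 read 6.45 with glucose and 6.49 without. Arrays without vitamin D and calcidiol arrays 1 and 2 read between 6.19 and 6.48. Raised Casr thus lay under calcitriol on arrays 1 and 2 and under calcidiol on array 3. The labels were kept, and the cause was not tested. The comparisons below were therefore made both on all 18 arrays and on the 12 numbered 1 and 2. These 12 were chosen after Txnip and Casr had been seen in the same data. Leaving out arrays whose Txnip goes against the glucose label favours glucose differences. The glucose p-values of the 12 arrays are therefore descriptions and not independent support.

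Secretory proteins enter the ER through a membrane channel, fold there with chaperones, form disulphide bonds through oxidoreductases, and leave in coated vesicles or are returned to the cytosol and degraded. Misfolded protein activates the sensors IRE1 (encoded by Ern1), PERK (Eif2ak3) and ATF6, which raise transcription of chaperone and degradation genes through XBP1 and ATF6 and reduce translation through PERK, with ATF4 acting downstream. Beta cells depend on these pathways because proinsulin is made in large amounts and glucose raises its translation within minutes to hours.

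ATF6 and XBP1 are known to act on the ER stress response element (ERSE), a CCAAT box and a CCACG box separated by a fixed spacer, and on the shorter ERSE-II. The RefSeq promoter table (rat assembly GRCr8) held 25 of the 34 genes, each with 250 bases before and 50 after a transcription start. The pattern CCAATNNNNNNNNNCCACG, searched on both strands, was found in 9 of these 25 genes and in 21 of all 27457 genes in the table, or 0.0765%. The pattern ATTGGNCCACG was found in 3 of the 25 and in 17 of all, or 0.0619%. No gene of the 25 had both. The 250 bases before the start are shown for Hspa5, the chaperone BiP, for Xbp1 and for Herpud1, because their expression is followed closely below. All are 5′ to 3′ on the gene's strand, with the matched boxes in capitals.
Hspa5, chr3:38452766-38453015, plus strand: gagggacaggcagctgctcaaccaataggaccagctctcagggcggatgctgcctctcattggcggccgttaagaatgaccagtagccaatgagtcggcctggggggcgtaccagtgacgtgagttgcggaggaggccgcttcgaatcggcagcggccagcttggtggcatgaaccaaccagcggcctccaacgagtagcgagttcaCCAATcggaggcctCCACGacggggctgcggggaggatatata
Xbp1, chr14:84604373-84604622, plus strand: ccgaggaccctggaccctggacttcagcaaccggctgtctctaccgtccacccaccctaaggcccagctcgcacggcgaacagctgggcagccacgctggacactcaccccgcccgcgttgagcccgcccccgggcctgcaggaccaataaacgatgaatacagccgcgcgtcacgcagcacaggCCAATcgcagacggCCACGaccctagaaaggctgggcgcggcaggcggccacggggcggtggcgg
Herpud1, chr19:10614708-10614957, minus strand: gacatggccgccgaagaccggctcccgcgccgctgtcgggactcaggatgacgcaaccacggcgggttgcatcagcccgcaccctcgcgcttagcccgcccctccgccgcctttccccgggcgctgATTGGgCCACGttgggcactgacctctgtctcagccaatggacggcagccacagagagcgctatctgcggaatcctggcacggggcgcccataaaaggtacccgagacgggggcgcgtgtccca
The other matches are shown as the matched stretch alone, written on the strand that reads CCAAT or ATTGG first, because their spacers differ while the boxes are identical.
Hsp90b1, chr7:23012451-23012469: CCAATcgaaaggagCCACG
Hsp90b1, chr7:23012347-23012365: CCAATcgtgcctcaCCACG
Calr, chr19:40213135-40213153: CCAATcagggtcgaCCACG
Canx, chr10:35158069-35158087: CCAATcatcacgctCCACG
Dnajc3, chr15:102432534-102432552: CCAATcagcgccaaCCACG
Creld2, chr7:121789239-121789257: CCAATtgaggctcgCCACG
Derl3, chr20:12766601-12766619: CCAATaaggaagtcCCACG
Ero1lb, chr17:92941458-92941476: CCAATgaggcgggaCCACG
Dnajb11, chr11:91672800-91672810: ATTGGcCCACG
Hyou1, chr8:53602694-53602704: ATTGGcCCACG
Hyou1, chr8:53602794-53602804: ATTGGgCCACG
A match describes these letters and is not evidence of binding in INS1E cells. The other 13 of the 25 genes had no match in this window, among them Sdf2l1, Dnajb9, Pdia4 and Wfs1.

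The ER genes differed little between the 6 groups. Group means of a gene spanned a median of 0.12 log2 units over the 34 genes and 0.16 over the 9852 genes tested, and 31 of the 34 spans were under 0.25, as were 82.1% of those of all genes tested. The spans ran between 0.02, for Hspa5, and 0.49, for Ern1. Arrays of the same group differed about as much, with a median SD within groups of 0.116 over the ER genes and 0.111 over all genes tested. The widest were Ern1 (SD 0.27), Sdf2l1 (0.26) and Ero1l (0.25), and the map of all 34 genes shows these as single coloured cells rather than as coloured groups. RNA was taken from whole cultures, so fewer transcribing cells and less RNA per cell cannot be told apart.

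**Figure D1:**
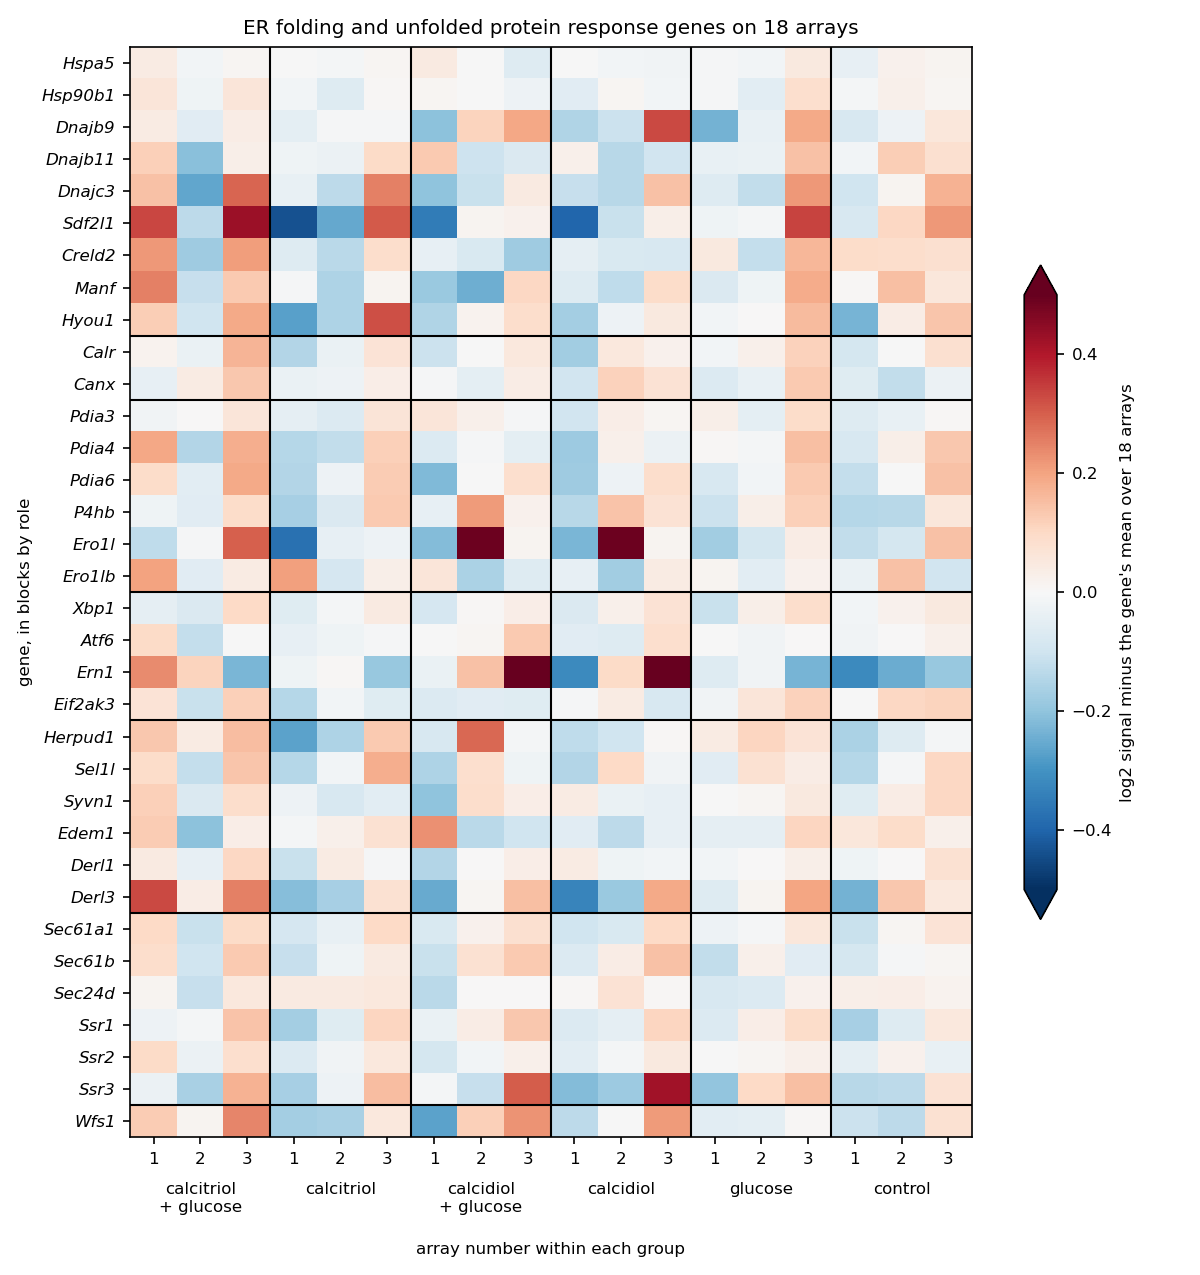
Log2 signal of the 34 ER genes (rows, in blocks by role) on 18 arrays (columns, array number within each group), each drawn as its difference from the gene's mean over 18 arrays, with the colour scale limited at 0.5. The strongest cells are single arrays, such as Ern1 on both calcidiol arrays numbered 3 and Ero1l on both calcidiol arrays numbered 2, and no group of 3 columns has one colour over all rows.

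What the ER genes shared was a shift by array number. The median deviation of the 34 genes from their own 18-array means was between 0.03 and 0.13 on the 6 arrays numbered 3. It was between -0.06 and 0.01 on those numbered 2, and between -0.09 and 0.09 on those numbered 1. Within the groups, 19 of the 34 genes were highest on array 3 after calcitriol with glucose, 29 after calcitriol without glucose, 19 in each calcidiol group, 30 with glucose alone and 24 in the control. In all genes tested that share was between 35.9% and 45.7%. Array 3 was the highest of its group in all 6 groups for 8 ER genes, Pdia6, Xbp1, Dnajc3, Sdf2l1, Hyou1, Ssr1, Ssr3 and Wfs1, and for 5.70% of all genes tested. It was so in at least 5 groups for 14 ER genes and 15.8% of all genes. The plot of the median deviations shows array 1 of calcitriol with glucose, at 0.09, as the exception among arrays numbered 1. The label conflicts of Txnip lie on 3 of these arrays. The part of array number in the results below was examined only with it as a block and by leaving out each number in turn.

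**Figure D2:**
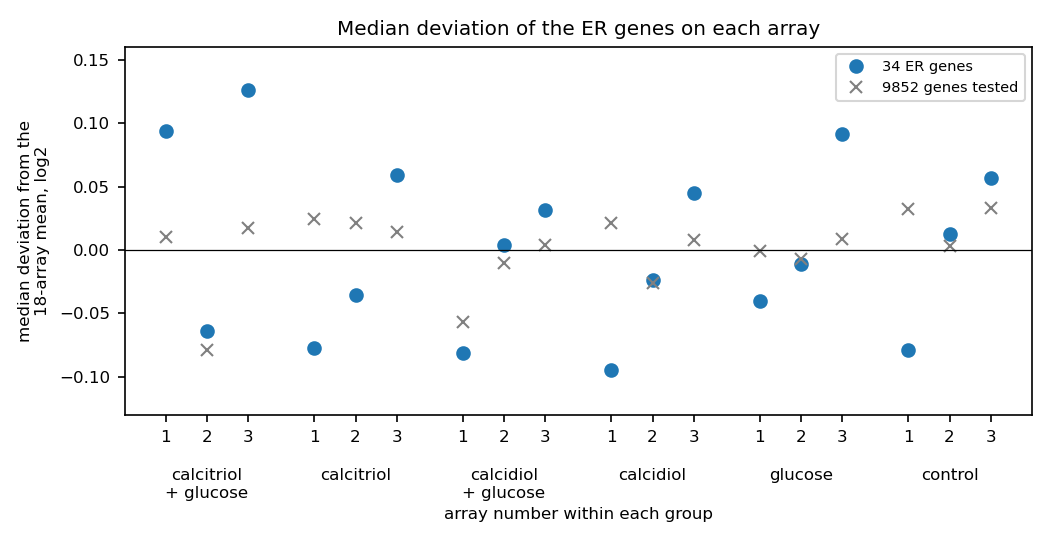
Median deviation (log2) of the 34 ER genes (circles) and of the 9852 genes tested (crosses) from each gene's mean over 18 arrays, for every array in 6 groups. The circles of arrays numbered 3 lie between 0.03 and 0.13 in all 6 groups, and those numbered 1 lie below 0 except in calcitriol with glucose.

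Glucose for 60 min left most of the ER genes close to their level in cells without glucose, and Herpud1, which helps to bring misfolded proteins to the degradation complex of the ER membrane, had the largest difference. Averaged over the 3 pretreatments, glucose minus no glucose was 0.17 log2 for Herpud1 (SE 0.06, n = 9 arrays in each state), a 1.12-fold difference. None of the 34 genes passed an adjusted p of 0.05 in limma, where 332 of 9852 genes (3.37%) did, and at an unadjusted p under 0.05 only Herpud1 did, against 1876 of all genes (19.0%). With array number as a block, 941 of all genes and 0 ER genes passed. On the 12 arrays numbered 1 and 2, Herpud1 was 1 of 979 genes that passed (9.94%) and the only ER gene. Derl3, Ern1 and Sec24d joined it there at an unadjusted p under 0.05, which 24.8% of all genes had. The median difference over the 34 was 0.02 on all arrays and 0.03 on the 12, against -0.03 and -0.04 over all genes tested. Differences were positive for 29 of the 34 (85.3%) and for 33.0% of all genes. On the 12 arrays they were positive for 24 of the 34 (70.6%) and for 33.5% of all genes. Within pretreatments on 18 arrays, the difference was positive for 31 of the 34 after calcitriol, 20 after calcidiol and 19 without vitamin D. The shares of all genes there were 35.3%, 37.7% and 37.9%. In the same order the 12 arrays gave 29, 21 and 19 of the 34, and 33.0%, 38.5% and 41.2% of all genes. The genes share their arrays, so these counts are descriptions. All 34 intervals (95%) of the averaged difference lay within 0.5 log2 units of 0, between -0.19 and 0.37.

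**Figure D3:**
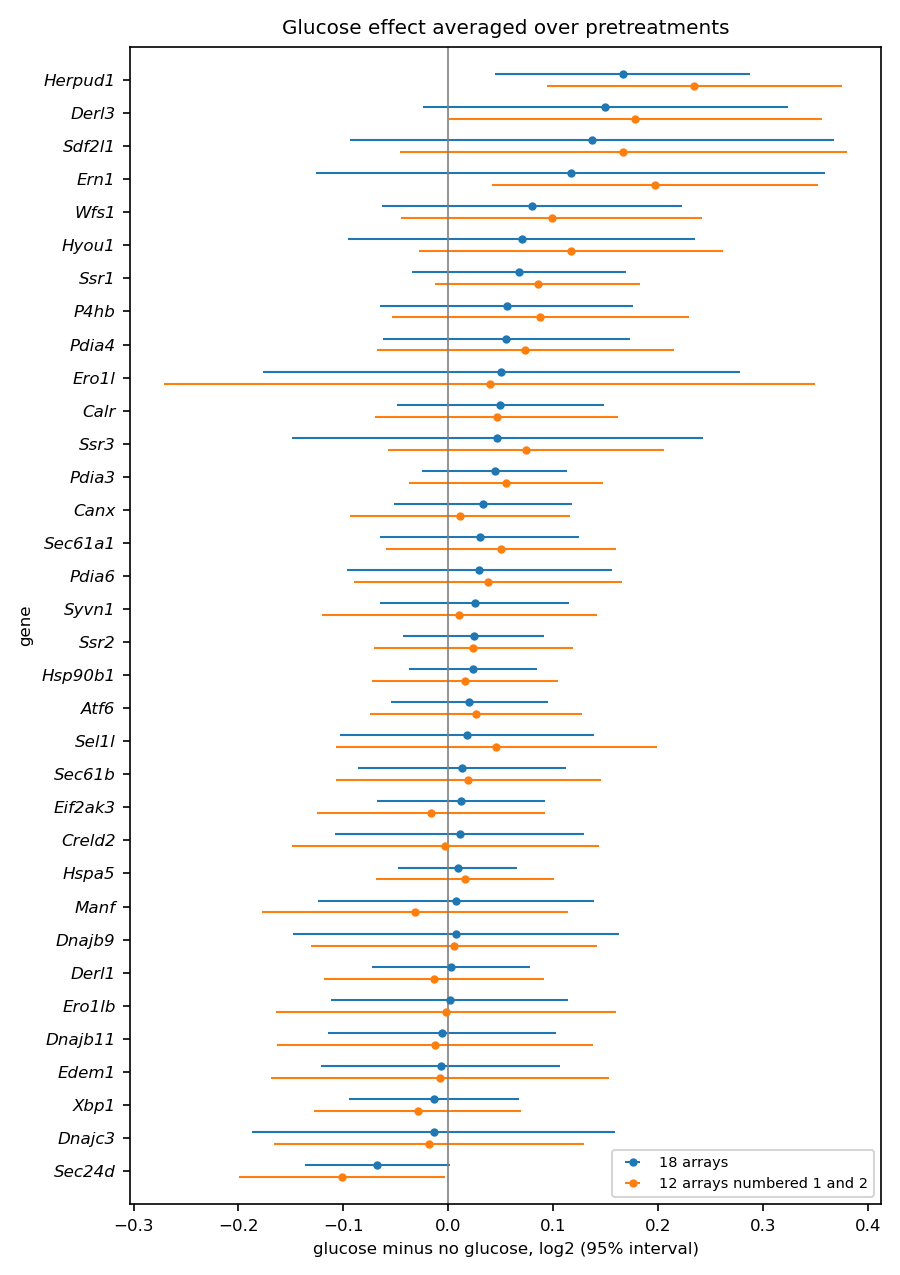
Glucose minus no glucose, averaged over the 3 pretreatments, in log2 signal for each of 34 ER genes, with 95% intervals from limma on all 18 arrays (blue) and on the 12 arrays numbered 1 and 2 (orange). Herpud1 is at the top at 0.17 and 0.23, and Sec24d at the bottom at -0.07 and -0.10.

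Among the chaperones, Hspa5 (BiP), the main Hsp70 of the ER and the partner that holds the sensors inactive, had the narrowest span of group means. With glucose its log2 signals on arrays 1, 2 and 3 were 12.57, 12.52 and 12.54 after calcitriol, 12.57, 12.53 and 12.47 after calcidiol and 12.52, 12.52 and 12.58 without vitamin D. Without glucose they were 12.53, 12.52 and 12.54 after calcitriol, 12.53, 12.52 and 12.51 after calcidiol and 12.49, 12.55 and 12.54 without vitamin D. All 18 values lay between 12.47 and 12.58 and every glucose group overlapped its partner without glucose. The averaged difference was 0.01 (-0.05 to 0.07, adjusted p = 0.898 in limma, with 0.02 on the 12 arrays). Hspa5, Pdia3 and Hsp90b1 had the highest mean signals of the 34 genes, at 12.53, 12.33 and 12.03. Their SDs within groups were 0.03, 0.06 and 0.04, against a median of 0.116 over the 34. Whether so high a signal limits the differences that the arrays can show was not tested.

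Hsp90b1 (GRP94), the Hsp90 of the ER, read 12.09, 12.005 and 12.09 after calcitriol, 12.03, 12.02 and 12.001 after calcidiol and 12.02, 11.98 and 12.11 without vitamin D, all with glucose. It read 12.01, 11.96 and 12.03 after calcitriol, 11.97, 12.04 and 12.01 after calcidiol and 12.02, 12.05 and 12.04 without vitamin D, all in the absence of glucose. Its values also stayed within 0.15 log2 units over all arrays, with an averaged difference of 0.02 (-0.04 to 0.08, with 0.02 on the 12 arrays). Hyou1 (GRP170), a nucleotide exchange factor for BiP, varied more. With glucose Hyou1 read 10.28, 10.06 and 10.34 after calcitriol, 10.01, 10.17 and 10.24 after calcidiol and 10.14, 10.16 and 10.31 without vitamin D. Without it the values were 9.88, 10.001 and 10.48 after calcitriol, 9.99, 10.13 and 10.21 after calcidiol and 9.92, 10.19 and 10.29 without vitamin D. The single highest array was number 3 of calcitriol without glucose, and the averaged difference was 0.07 (-0.10 to 0.24, with 0.12 on the 12 arrays).

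Sdf2l1, a cofactor of the ER chaperone complex that is strongly induced by ER stress in many cells, had the widest glucose difference within 1 pretreatment. After calcitriol it read 9.18, 8.71 and 9.27 with glucose, against 8.41, 8.59 and 9.15 without. The widest same-numbered pair was array 1, and array 3 without glucose lies with the glucose arrays. The difference was 0.34 (SE 0.19, -0.06 to 0.74, adjusted p = 0.57 in limma) on 18 arrays. It was 0.45 on the 12 arrays (adjusted p = 0.229 in limma, unadjusted p = 0.0221). After calcidiol Sdf2l1 read 8.50, 8.86 and 8.87 with glucose, against 8.45, 8.74 and 8.87 without. Without vitamin D it read 8.82, 8.84 and 9.18 with glucose, against 8.77, 8.95 and 9.06 without. Both of those pairs overlapped, and the difference averaged over pretreatments was 0.14 (-0.09 to 0.37, with 0.17 on the 12 arrays).

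Dnajb9 (ERdj4), a co-chaperone of BiP and a known target of XBP1, read 8.72, 8.63 and 8.72 after calcitriol, 8.48, 8.79 and 8.88 after calcidiol and 8.45, 8.65 and 8.87 without vitamin D, all with glucose. Its values without glucose were 8.63, 8.68 and 8.68 after calcitriol, 8.53, 8.58 and 9.01 after calcidiol and 8.60, 8.66 and 8.74 without vitamin D. They overlapped in every pretreatment, with the highest on array 3 of calcidiol without glucose, and the averaged difference was 0.01 (-0.15 to 0.16, with 0.01 on the 12 arrays). Creld2, an ER protein induced with the response, read 9.19, 8.79 and 9.18 after calcitriol, 8.93, 8.90 and 8.80 after calcidiol and 9.02, 8.85 and 9.14 without vitamin D, all with glucose. It read 8.91, 8.84 and 9.06 after calcitriol, 8.93, 8.90 and 8.89 after calcidiol and 9.07, 9.06 and 9.05 without vitamin D, all in the absence of glucose. The 3 control values were nearly equal and lay above the other groups without glucose, apart from calcitriol array 3, which lay among them. Manf, a secreted protein that supports beta-cell survival in mice, read 9.21, 8.84 and 9.09 after calcitriol, 8.78, 8.72 and 9.06 after calcidiol and 8.89, 8.94 and 9.15 without vitamin D, all with glucose. It read 8.95, 8.81 and 8.97 after calcitriol, 8.90, 8.83 and 9.05 after calcidiol and 8.97, 9.11 and 9.02 without vitamin D, all in the absence of glucose. The intervals of both genes held 0, at 0.01 (-0.11 to 0.13, with 0.00 on the 12 arrays) for Creld2 and 0.01 (-0.12 to 0.14, with -0.03 on the 12 arrays) for Manf. The other 2 chaperone genes, the BiP co-chaperones Dnajb11 and Dnajc3, had averaged differences of -0.01 and -0.01, and of -0.01 and -0.02 on the 12 arrays. Their signals lay between 10.08 and 10.43 for Dnajb11 and between 8.92 and 9.47 for Dnajc3.

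The lectin chaperones hold glycoproteins while they fold. Canx (calnexin) read 11.69, 11.77 and 11.87 after calcitriol, 11.73, 11.68 and 11.77 after calcidiol and 11.67, 11.69 and 11.86 without vitamin D, all with glucose. It read 11.70, 11.71 and 11.76 after calcitriol, 11.64, 11.85 and 11.80 after calcidiol and 11.67, 11.61 and 11.70 without vitamin D, all in the absence of glucose. The groups overlapped in each pretreatment. The averaged differences were 0.03 (-0.05 to 0.12, with 0.01 on the 12 arrays) for Canx and 0.05 (-0.05 to 0.15, with 0.05 on the 12 arrays) for Calr (calreticulin), whose signals lay between 11.60 and 11.95.

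The genes of oxidative folding, protein disulphide isomerases and the ERO1 oxidases that recharge them, had averaged glucose differences between 0.00 for Ero1lb and 0.06 for P4hb. Pdia4 (ERp72) read 11.27, 10.94 and 11.26 after calcitriol, 11.01, 11.07 and 11.03 after calcidiol and 11.08, 11.07 and 11.23 without vitamin D, all with glucose. Without glucose it read 10.94, 10.96 and 11.20 after calcitriol, 10.90, 11.11 and 11.05 after calcidiol and 11.001, 11.11 and 11.21 without vitamin D. Arrays 1 and 3 of calcitriol with glucose were the highest, and its averaged difference was 0.06 (-0.06 to 0.17, with 0.07 on the 12 arrays). Ero1l (ERO1 alpha) read 9.10, 9.22 and 9.52 after calcitriol, 9.005, 9.71 and 9.23 after calcidiol and 9.05, 9.13 and 9.26 without vitamin D, all with glucose. Its values without glucose were 8.85, 9.18 and 9.20 after calcitriol, 8.99, 9.71 and 9.23 after calcidiol and 9.10, 9.13 and 9.37 without vitamin D. Both calcidiol arrays numbered 2 read 9.71, far above arrays 1 and 3 of the same groups, and the interval of its averaged glucose difference was -0.18 to 0.28. Ero1lb (ERO1 beta), the form enriched in the pancreas, read 10.06, 9.80 and 9.90 after calcitriol, 9.92, 9.70 and 9.79 after calcidiol and 9.87, 9.80 and 9.88 without vitamin D, all with glucose. It read 10.06, 9.77 and 9.89 after calcitriol, 9.82, 9.69 and 9.90 after calcidiol and 9.83, 10.01 and 9.76 without vitamin D, all in the absence of glucose. These values overlapped throughout, with an interval of -0.11 to 0.11. Pdia3, Pdia6 and P4hb, 3 further isomerases, had averaged differences of 0.04, 0.03 and 0.06, and of 0.06, 0.04 and 0.09 on the 12 arrays. P4hb was higher with glucose in all 6 pairs of same-numbered arrays 1 and 2, and in 7 of 9 over all numbers. Such pair counts, here and below, were not made over all genes tested. They describe single genes only.

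The sensors and their transcription factors did not pass either. Xbp1, the factor that IRE1 activates by splicing its mRNA, read 11.42, 11.39 and 11.56 after calcitriol, 11.38, 11.47 and 11.50 after calcidiol and 11.35, 11.49 and 11.55 without vitamin D, all with glucose. It read 11.41, 11.46 and 11.51 after calcitriol, 11.39, 11.49 and 11.54 after calcidiol and 11.45, 11.49 and 11.51 without vitamin D, all in the absence of glucose. Array 3 was the highest in all 6 groups, and the averaged difference was -0.01 (-0.09 to 0.07, with -0.03 on the 12 arrays). Xbp1 had 1 probe set and so 1 value per array, so its spliced form was not measured on its own. Atf6 read 8.98, 8.76 and 8.88 after calcitriol, 8.88, 8.89 and 9.01 after calcidiol and 8.88, 8.87 and 8.88 without vitamin D, all with glucose. It read 8.84, 8.86 and 8.88 after calcitriol, 8.83, 8.82 and 8.97 after calcidiol and 8.87, 8.88 and 8.91 without vitamin D, all in the absence of glucose, and the averaged difference was 0.02 (-0.06 to 0.10, with 0.03 on the 12 arrays). Eif2ak3 (PERK) read 9.24, 9.06 and 9.29 after calcitriol, 9.10, 9.12 and 9.11 after calcidiol and 9.15, 9.23 and 9.28 without vitamin D, all with glucose. Its values without glucose were 9.03, 9.16 and 9.11 after calcitriol, 9.16, 9.21 and 9.09 after calcidiol and 9.17, 9.27 and 9.28 without vitamin D. The averaged difference was 0.01 (-0.07 to 0.09, with -0.02 on the 12 arrays).

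Ern1 (IRE1 alpha) read 9.38, 9.26 and 8.92 after calcitriol, 9.12, 9.29 and 9.76 after calcidiol and 9.09, 9.13 and 8.92 without vitamin D, all with glucose. Without glucose it read 9.13, 9.16 and 8.96 after calcitriol, 8.83, 9.24 and 9.81 after calcidiol and 8.83, 8.90 and 8.96 without vitamin D. The 2 calcidiol arrays numbered 3 stood far above all others. On arrays 1 and 2, Ern1 was higher with glucose in all 6 same-numbered pairs, and on array 3 it was lower with glucose in each pretreatment. The averaged difference was 0.12 (-0.13 to 0.36, adjusted p = 0.637 in limma) over 18 arrays. Over the 12 arrays it was 0.20 (0.04 to 0.35), with an unadjusted p of 0.0179 and an adjusted p of 0.108 in limma.

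**Figure D4:**
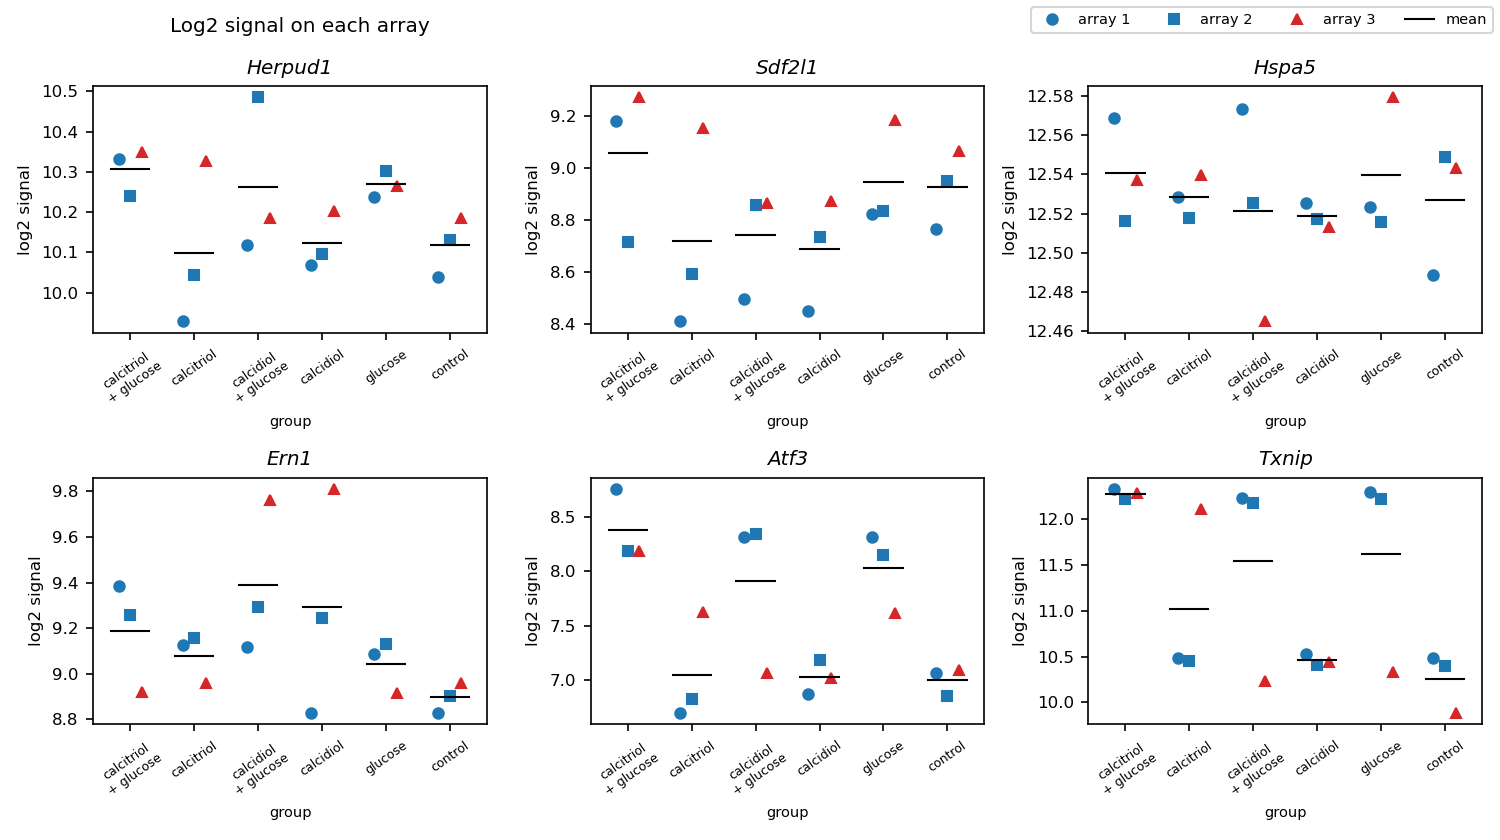
Log2 signal on each array of 6 groups for Herpud1, Sdf2l1, Hspa5, Ern1, Atf3 and Txnip, with arrays 1 and 2 in blue, array 3 in red and the group mean as a line; each panel has its own vertical scale. Atf3 and Txnip separate glucose from no glucose on arrays 1 and 2 over all pretreatments, Herpud1 does so only within each pretreatment, and Hspa5 stays within 12.47 and 12.58.

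In the degradation group, Herpud1 had the largest averaged glucose difference. After calcitriol it read 10.33, 10.24 and 10.35 with glucose, against 9.93, 10.04 and 10.33 without. After calcidiol it read 10.12, 10.49 and 10.19 with glucose, against 10.07, 10.10 and 10.20 without. Without vitamin D it read 10.24, 10.30 and 10.27 with glucose, against 10.04, 10.13 and 10.19 without. Only the cells without vitamin D showed no overlap over 3 arrays, as 16.2% of all genes did in that comparison. Overlap after calcitriol came from array 3 without glucose, 1 of the arrays whose Txnip goes against its label. Herpud1 was higher with glucose in 8 of the 9 same-numbered pairs and in all 6 pairs of arrays 1 and 2.

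Averaged over pretreatments, the difference for Herpud1 was 0.17 (0.04 to 0.29), with an unadjusted p of 0.0104 and an adjusted p of 0.117 in limma. Without the arrays numbered 3 this difference was 0.23 (0.09 to 0.38), or 1.18-fold, with an adjusted p of 0.0426 in limma. Those arrays were left out after Txnip, itself raised by glucose, had been seen on them. Leaving out array 3 of calcitriol without glucose alone gave 0.20 and an adjusted p of 0.0332 in limma, whereas leaving out all arrays numbered 1 gave 0.14 and 0.759, and all numbered 2 gave 0.12 and 0.652. Over 30 alternatives the difference lay between 0.12 and 0.23 and passed in 4. Within the pretreatments it was 0.21 after calcitriol, 0.14 after calcidiol and 0.15 without vitamin D. It was 0.30, 0.22 and 0.19 in the same order on the 12 arrays, and none of these passed.

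Derl3, a derlin of the channel that returns misfolded proteins to the cytosol, read 9.46, 9.16 and 9.37 after calcitriol, 8.87, 9.14 and 9.28 after calcidiol and 9.06, 9.14 and 9.32 without vitamin D, all with glucose. It read 8.91, 8.96 and 9.20 after calcitriol, 8.80, 8.94 and 9.31 after calcidiol and 8.89, 9.26 and 9.18 without vitamin D, all in the absence of glucose. After calcitriol the difference was 0.31 (0.01 to 0.61, with 0.37 on the 12 arrays), with array 1 again the widest pair. On 18 arrays its unadjusted p was 0.0459 and its adjusted p 0.495 in limma. It was the only ER gene with an unadjusted p under 0.05 in that comparison, as 9.87% of all genes had. Averaged over pretreatments Derl3 gave 0.15 (-0.02 to 0.32, with 0.18 on the 12 arrays). Edem1, which removes mannose from glycoproteins to mark them for degradation, read 9.53, 9.20 and 9.43 after calcitriol, 9.63, 9.27 and 9.30 after calcidiol and 9.36, 9.36 and 9.51 without vitamin D, all with glucose. It read 9.39, 9.43 and 9.48 after calcitriol, 9.35, 9.27 and 9.36 after calcidiol and 9.46, 9.49 and 9.43 without vitamin D, all in the absence of glucose. Its groups overlapped after either vitamin D form and in cells without it, and the averaged difference was -0.01 (-0.12 to 0.11, with -0.01 on the 12 arrays). Sel1l and Syvn1 (HRD1), the core of the ubiquitin ligase complex, gave 0.02 and 0.03, and Derl1 gave 0.00. On the 12 arrays these were 0.05, 0.01 and -0.01.

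Among the genes of translocation and export, Sec24d, a cargo adaptor of the COPII coat, was the gene with the lowest averaged difference. With glucose it read 10.99, 10.86 and 11.02 after calcitriol, 10.84, 10.98 and 10.97 after calcidiol and 10.89, 10.91 and 10.995 without vitamin D. Without glucose it read 11.02, 11.02 and 11.03 after calcitriol, 10.98, 11.04 and 10.98 after calcidiol and 11.004, 11.01 and 10.99 without vitamin D. It was lower with glucose in 8 of 9 same-numbered pairs, and its 3 calcidiol arrays with glucose lay narrowly below those without, as 5.12% of genes did not overlap in that comparison. The averaged difference was -0.07 (-0.14 to 0.00, adjusted p = 0.273 in limma) and -0.10 on the 12 arrays (adjusted p = 0.186 in limma). Ssr1, a subunit of the translocon-associated protein complex, was higher with glucose in 9 of 9 pairs, a count not made over all genes. The difference was only 0.07 (-0.03 to 0.17, adjusted p = 0.482 in limma, with 0.09 on the 12 arrays). The channel subunits Sec61a1 and Sec61b gave 0.03 and 0.01, and Ssr2 and Ssr3 gave 0.02 and 0.05. Without the arrays numbered 3 they gave 0.05, 0.02, 0.02 and 0.07.

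Wfs1 (wolframin), an ER membrane protein whose loss causes diabetes in Wolfram syndrome, read 9.13, 9.02 and 9.25 after calcitriol, 8.74, 9.13 and 9.23 after calcidiol and 8.95, 8.96 and 9.01 without vitamin D, all with glucose. It read 8.84, 8.84 and 9.06 after calcitriol, 8.88, 9.01 and 9.22 after calcidiol and 8.90, 8.88 and 9.08 without vitamin D, all in the absence of glucose. After calcitriol the arrays with glucose were higher, apart from array 2, which lay below array 3 without glucose, and the difference was 0.22 (-0.03 to 0.47, adjusted p = 0.547 in limma, with 0.24 on the 12 arrays). The averaged difference was 0.08 (-0.06 to 0.22, with 0.10 on the 12 arrays).

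The 12 genes with a matched promoter element had a median averaged glucose difference of 0.02, between -0.01 and 0.17, and the 13 without a match a median of 0.03, between -0.01 and 0.14. Herpud1 was the highest of those with a match, and the other ERSE-II genes Hyou1 and Dnajb11 gave 0.07 and -0.01.

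Other genes of the pathway were taken from 2 lists. In the arm downstream of PERK and among other ER stress regulators, 17 of 17 genes were tested, and glucose averaged over pretreatments raised 1 of them, Atf3, where 3.37% of all genes passed. It raised 4 and lowered 0 on the 12 arrays, where 9.94% passed. The list's median difference was 0.05 on 18 arrays and 0.08 on the 12. Atf3, a stress-inducible transcription factor, read 8.76, 8.19 and 8.18 with glucose after calcitriol, against 6.70, 6.83 and 7.62 without. It read 8.32, 8.35 and 7.07 with glucose after calcidiol, against 6.87, 7.19 and 7.02 without, and 8.32, 8.15 and 7.62 with glucose alone, against 7.07, 6.85 and 7.09 in the control. The averaged difference was 1.08 (SE 0.18, adjusted p = 0.0129 in limma), or 2.11-fold, and 1.43 on the 12 arrays, or 2.70-fold. On array 3, Atf3 was above arrays 1 and 2 in calcitriol without glucose and below them in calcidiol with glucose, as Txnip was. With glucose alone, array 3 of Atf3 read 7.62, below arrays 1 and 2 but above all control arrays. Txnip on that array lay among the controls.

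Nupr1 read 9.99, 9.60 and 9.85 with glucose after calcitriol, against 9.20, 9.29 and 9.86 without. After calcidiol it read 9.90, 9.77 and 9.31 with glucose, against 8.996, 9.22 and 9.36 without, and with no vitamin D 9.94, 9.87 and 9.26 with glucose, against 9.22, 9.31 and 9.31 in the control. Arrays 1 and 2 with glucose all lay above those without, and array 3 of calcitriol without glucose lay among the glucose arrays. Chac1 read 8.88, 8.82 and 8.78 with glucose after calcitriol, against 8.06, 8.31 and 8.83 without. After calcidiol it read 8.61, 8.85 and 8.68 with glucose, against 7.97, 8.41 and 8.64 without, and with no vitamin D 8.64, 8.64 and 8.82 with glucose, against 8.18, 8.54 and 8.60 in the control. Its arrays 1 and 2 separated in the same way, by less. Ppp1r15a read 8.29, 8.19 and 8.18 with glucose after calcitriol, against 7.84, 7.97 and 8.17 without. After calcidiol it read 8.14, 8.37 and 8.12 with glucose, against 7.87, 8.25 and 8.09 without, and with no vitamin D 8.08, 8.19 and 8.32 with glucose, against 7.94, 7.86 and 8.10 in the control. On arrays 1 and 2 its groups overlapped after calcidiol.

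The other 3 that passed on the 12 arrays were Nupr1, a stress-induced chromatin protein, at 0.64 (adjusted p = 0.000298 in limma), Chac1, which degrades glutathione, at 0.49 (0.00722), and Ppp1r15a (GADD34), which reverses the block of translation, at 0.26 (0.0488). On all 18 arrays Nupr1 was at 0.41, Chac1 at 0.35 and Ppp1r15a at 0.20, with adjusted p-values of 0.0583, 0.0663 and 0.086 in limma. The 12 arrays were chosen after Txnip had been seen, so their lower p-values are not independent support. Atf4 itself gave 0.07 (-0.02 to 0.15, with 0.08 on the 12 arrays), and Ddit3 (CHOP), which promotes death under prolonged stress, gave 0.21 (0.00 to 0.43, adjusted p = 0.269 in limma, with 0.27 on the 12 arrays). Within pretreatments on the 12 arrays, Atf3 passed in all 3, at 1.71 after calcitriol, 1.30 after calcidiol and 1.27 without vitamin D, and Nupr1 passed after calcidiol and without vitamin D. The second list held 56 further genes of folding, translocation, glycosylation, degradation and export, of which 53 were in the table and 52 were tested. None passed in limma in the averaged glucose comparison, where 3.37% of all genes did, 2 had an unadjusted p under 0.05, where 19.0% did, and their median was 0.02. On the 12 arrays 0 passed, against 9.94% of all genes, 4 had an unadjusted p under 0.05, against 24.8%, and the median was 0.02.

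Within each pretreatment, no ER gene passed after glucose, nor did any of the 9852 genes on 18 arrays (0.00%). At an unadjusted p under 0.05 there was 1 ER gene after calcitriol (9.87% of all genes), 0 after calcidiol (4.66%) and 0 without vitamin D (6.08%). Median differences of the 34 genes were 0.06 after calcitriol, 0.01 after calcidiol and 0.01 without vitamin D, against -0.04, -0.03 and -0.03 over all genes. Without the arrays numbered 3, 186, 133 and 104 genes passed in these comparisons (1.89%, 1.35% and 1.06%), and 0 of them were ER genes in limma. At an unadjusted p under 0.05 the 12 arrays gave 3 ER genes after calcitriol, Derl3, Herpud1 and Sdf2l1, where 15.1% of all genes had one. They gave 0 after calcidiol (12.7%) and 0 without vitamin D (8.68%).

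Whether vitamin D changed the glucose response was tested as an interaction, and no ER gene passed for calcitriol or calcidiol, nor did any gene of the array (0.00%) in limma. At an unadjusted p under 0.05 there were 66 genes for calcitriol (0.670%) and 32 for calcidiol (0.325%), with 0 ER genes in each. The highest calcitriol value was that of Sdf2l1, whose glucose difference was 0.32 higher after calcitriol than without vitamin D (-0.25 to 0.88, with 0.48 on the 12 arrays). The smallest p among the ER genes was that of Creld2, at 0.18 (-0.11 to 0.47, unadjusted p = 0.215 in limma, with 0.25 on the 12 arrays). For calcidiol it was Canx, at -0.12 (-0.33 to 0.09, with -0.08 on the 12 arrays), and the highest value was Edem1, at 0.13 (-0.15 to 0.41, with 0.26 on the 12 arrays). On 18 arrays, intervals stayed within 0.5 of 0 for 27 of the 34 genes with calcitriol and for 30 with calcidiol, and they reached past it for the others, Sdf2l1, Ern1, Ero1l and Ssr3 among them with either form. Without the arrays numbered 3, 28 and 27 intervals did so, and again 0 genes passed in limma for either interaction. At an unadjusted p under 0.05 were 144 genes for calcitriol and 138 for calcidiol (1.46% and 1.40%), with 0 ER genes.

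Calcitriol for 72 h gave no ER gene that passed against cells without vitamin D. Averaged over glucose states, the median difference of the 34 genes was 0.01, against -0.01 over all genes, and 0 of 9852 genes passed in limma (0.00%). At an unadjusted p under 0.05 there were 60 genes (0.609%) and no ER gene. The differences lay between -0.09 for Eif2ak3 (-0.18 to 0.01, with -0.09 on the 12 arrays) and 0.16 for Ern1 (-0.13 to 0.46), and all 34 intervals lay within 0.5 of 0. Eif2ak3 without glucose read 9.03, 9.16 and 9.11 after calcitriol, against 9.17, 9.27 and 9.28 in the control. These groups did not overlap, as 7.78% of genes did not, among them Sec24d, which was higher on the calcitriol arrays. The Eif2ak3 difference was -0.14 on 18 arrays (unadjusted p = 0.0429, adjusted p = 1 in limma). Of all genes, 0.782% had an unadjusted p under 0.05 there. On the 12 arrays the Eif2ak3 difference was -0.13 (unadjusted p = 0.155 in limma). With glucose Eif2ak3 read 9.24, 9.06 and 9.29 after calcitriol, against 9.15, 9.23 and 9.28 without vitamin D, and the groups overlapped. Wfs1 with glucose was higher on all 3 calcitriol arrays than on the 3 without vitamin D, by 0.16 (-0.09 to 0.41, with 0.12 on the 12 arrays), as 4.09% of genes had no overlap there, and without glucose its difference was -0.04 (-0.05 on the 12 arrays). In each glucose state 0 genes passed (0.00%), and with glucose 38 genes (0.386%) and 0 ER genes had an unadjusted p under 0.05. The 12 arrays gave 3 genes that passed in the averaged comparison (0.0305%) and 2 in each glucose state (0.0203%), 0 of them ER genes in limma. In the averaged comparison on these arrays Ern1 alone of the ER genes had an unadjusted p under 0.05, at 0.24 (0.05 to 0.44), as 2.07% of genes had. It was also the 1 ER gene of that kind without glucose, where 1.64% of genes were, and with glucose there were 0 ER genes among 2.60%.

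Calcidiol at the same dose and time gave no ER gene that passed either, and it was set against the same arrays without vitamin D as calcitriol. Averaged over glucose states the median difference was -0.02 for the 34 genes and for all genes tested, with 0 of 9852 genes passing in limma (0.00%). At an unadjusted p under 0.05 were 2 ER genes, Ern1 and Eif2ak3, and 660 of all genes (6.70%). Ern1 was at 0.37 (0.07 to 0.67, adjusted p = 0.722 in limma), with the 2 calcidiol arrays numbered 3 at 9.76 and 9.81 and the other 4 between 8.83 and 9.29. Without the arrays numbered 3 it was 0.13 (-0.06 to 0.32). The same 2 arrays were those with Casr at 9.55 and 9.52, and their Gcg, at 10.20 and 10.27, was the lowest of all arrays. The part of these values in the Ern1 difference was not tested. Eif2ak3 was at -0.10 (-0.20 to 0.00, adjusted p = 0.741 in limma), and at -0.06 on the 12 arrays. Sdf2l1, Creld2 and Manf were the lowest of the chaperones, at -0.22 (-0.51 to 0.06, with -0.21 on the 12 arrays), -0.14 (-0.29 to 0.00, with -0.09 on the 12 arrays) and -0.12 (-0.28 to 0.04, with -0.17 on the 12 arrays), and 8 of the 9 chaperones were below 0, Dnajb9 being the exception, where 36.4% of all genes tested were above 0. Without the arrays numbered 3, 7 of 9 were below 0 and 36.8% of all genes above it. The lean was not particular to the chaperones. On 18 arrays 0 of 6 degradation genes were above 0, against 3 of 6 for oxidative folding and 3 of 6 for translocation and export. On the 12 arrays these counts were 2, 3 and 3. Without glucose, Creld2 and Edem1 were lower on all 3 calcidiol arrays than in the control, as 7.04% of genes did not overlap there. With glucose, Eif2ak3 was lower on all 3 calcidiol arrays than on those without vitamin D, as 7.36% of genes did not overlap. In each glucose state 0 genes passed in limma (0.00%), and the unadjusted p was under 0.05 for 2.42% of genes without glucose and 2.63% with it, with 0 ER genes in each. The 12 arrays gave 0 ER genes at that p in the average (5.57% of genes), without glucose (2.70%) and with it (3.58%).

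**Figure D5:**
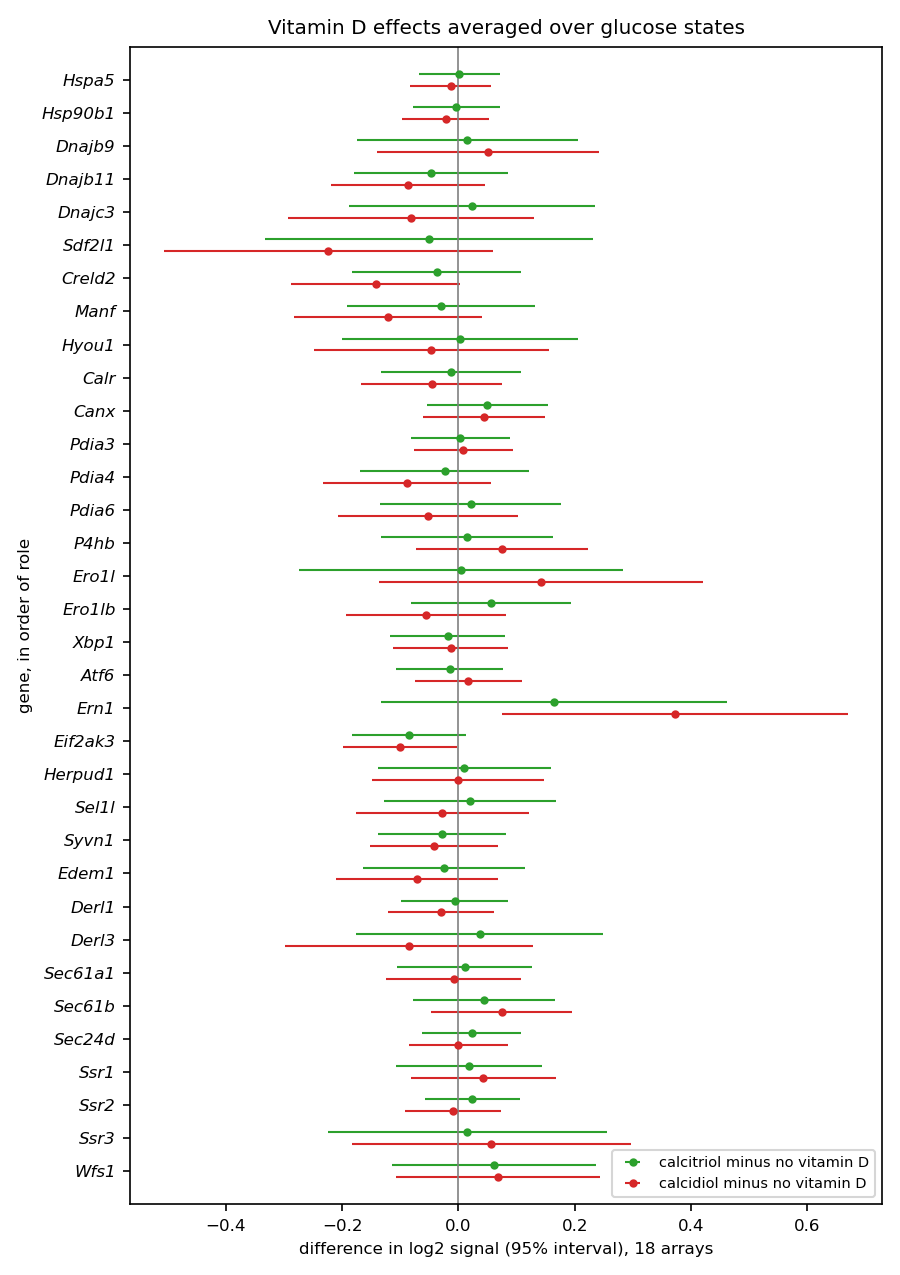
Differences in log2 signal of 34 ER genes (in order of role) for calcitriol minus no vitamin D (green) and calcidiol minus no vitamin D (red), averaged over glucose states on 18 arrays, with 95% intervals from limma. All calcitriol intervals lie within 0.5 of 0, and those of calcidiol reach past it for Ern1, at 0.37, and Sdf2l1, at -0.22.

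Set against each other at 10 nM and 72 h, the 2 forms, which differ by that hydroxyl, showed no ER gene past the threshold without glucose, with glucose or in the average. In limma 0 of 9852 genes passed in each (0.00%), and at an unadjusted p under 0.05 there were 96, 309 and 291 genes (0.974%, 3.14% and 2.95%) with 0 ER genes in each. Edem1 without glucose was higher on all 3 calcitriol arrays than on the calcidiol arrays, as 4.23% of genes did not overlap there. Calcitriol minus calcidiol, averaged over glucose states, had a median of 0.02 over the 34 genes and 0.01 over all genes. The smallest p was that of Ero1lb, at 0.11 (-0.03 to 0.25, unadjusted p = 0.106 in limma, with 0.14 on the 12 arrays), followed by Creld2 at 0.11 (-0.04 to 0.25, with 0.02 on the 12 arrays). Sdf2l1 was at 0.17 (-0.11 to 0.46, with 0.09 on the 12 arrays) and Hspa5 at 0.01 (-0.06 to 0.08, with 0.00 on the 12 arrays). Ern1 was at -0.21 (-0.51 to 0.09) on 18 arrays and at 0.11 (-0.08 to 0.30) without the arrays numbered 3, so its sign turned with them. The 12 arrays gave 1, 2 and 3 genes that passed without glucose, with glucose and in the average (0.0102%, 0.0203% and 0.0305%), 0 of them ER genes in limma. Their unadjusted p was under 0.05 for 1 ER gene, Manf with glucose, at 0.28 (0.03 to 0.54), as it was for 5.19% of genes there, and for 0 ER genes without glucose (2.19%) and in the average (4.89%). On 18 arrays 33 of the 34 intervals of the averaged difference lay within 0.5 of 0 and that of Ern1 did not. On the 12 arrays 33 did as well, and the exception was Ero1l, which had the largest difference there, at -0.27 (-0.65 to 0.11), and -0.14 on 18 arrays. A p that misses the threshold does not show that the forms act alike, and the intervals give the size of difference that these arrays leave possible.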

How the data were processed

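Gene expression in INS1E cells was measured on 18 Affymetrix Rat Gene 1.0 ST arrays, with groups and array numbers taken from the sample labels. The deposited values are log2 signals normalized by the authors. Per the submitters' processing notes the tools were RMA and Partek, with settings, versions and roles not given in the sources used here. Each fold is 2 raised to the power of a log2 difference.

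The table with gene names held 17017 probe sets and the full matrix 29214, and the shared values differed by 0 at most. Of the named table, 14698 probe sets had 1 symbol, 2306 had none, and 13 had a symbol turned into a date and were left out. For each of 13136 symbols the probe set with the highest mean was used. Genes with a mean below the 25th percentile (6.38 log2) were left out, and 9852 were tested.

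One limma model (version 3.58.1, R 4.3.3) of the 6 groups, with 12 residual degrees of freedom, gave 15 comparisons, each with Benjamini-Hochberg adjustment over all genes tested and a threshold of 0.05. Both vitamin D forms share the arrays without vitamin D as their control, and so do the interactions. The same model was fitted to the 12 arrays numbered 1 and 2, a set chosen after Txnip and Casr had been seen on the arrays numbered 3. The fitting code was tested on simulated data. Tables and figures were made in Python 3.11.15 with pandas 2.3.3, numpy 2.4.6 and matplotlib 3.10.9. Promoter sequences are from RefSeq, assembly GRCr8, and the motif search is a description of letters. No protein sequence or probe position was used here.

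The ER genes, the pathway lists and the markers were chosen with earlier results of these data known. Array values are given for a fixed set of sensors and chaperones, for genes that passed on 18 or 12 arrays, for the 3 with the smallest p in each averaged comparison and interaction, and for the 3 with the widest spread within groups. Canx, Ero1lb, Derl3, Edem1 and Sec24d were named by their p. Casr and Gcg were added after their values were seen, as checks of the arrays numbered 3.

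Array numbers are shared across groups. In 9 comparisons of 3 arrays with 3, deviations of same-numbered arrays from their group means correlated above 0.1 for every number in 8, and the lowest correlation was 0.0533. The labels do not say what a number marks, so array number enters as an alternative block. The other alternatives were no filter, the lower 50% of genes left out, quantile normalization, median centring, the mean of probe sets, array weights, a trended and robust fit, a fit to only the groups compared, and omission of single arrays and of each number in turn.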

Additional observations from a re-analysis of the deposited data

How the results depend on the processing

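No ER gene passed in any of the 15 comparisons on 18 arrays, and 27 of the 31 alternatives changed no such call for any of the 34 genes. The exceptions all concern Herpud1 in the averaged glucose comparison, where 1 ER gene passed in place of 0. They were array weights (0.23 log2, adjusted p = 0.00909 in limma), the 12 arrays numbered 1 and 2 (0.0426), the same 12 arrays with a replicate block (0.0185) and all arrays but number 3 of calcitriol without glucose (0.0332). Leaving out single arrays or numbers gave between 0 and 1 ER genes. With the replicate block on 18 arrays the adjusted p of Herpud1 was 0.0552 in limma, and the block changed no call of an ER gene there. Over 30 alternatives it ran between 0.00909 and 0.759, with 0.12 to 0.23 log2. The count of all genes that passed in that comparison, 332 on 18 arrays, moved far more. It was 941 with the replicate block, 1171 with array weights, 979 on the 12 arrays, 1564 on those with the block and 201 with the lower 50% of genes left out. It was 0 when all arrays numbered 1 were left out, and likewise for number 2. Leaving out any 1 array numbered 1 or 2 gave between 30 and 157 genes, and leaving out control array 3 gave 116, whereas 529 passed without array 3 of calcitriol without glucose and 806 without array 3 of calcidiol with glucose. No called value turned its sign, and 1362 of 15772 values that passed in neither setting did (8.64%). The range of the ER genes' median deviation over arrays was 0.22 log2, and 0.20 after quantile normalization and 0.24 after median centring. The averaged glucose comparison takes all groups, so fitting the compared groups alone gives no separate value there. The cause of these changes was not tested. With 3 arrays in a group, intervals of single comparisons were often wider than the differences they surround, and 1 value per gene measures no splice form.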
